A study of Nematostella vectensis with 84 samples.

Results

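The Progenitor cells described here are the cells placed in fine cluster 0, named Progenitor, by the authors' deposited annotation of single cells sorted from adult Nematostella vectensis, a sea anemone. That annotation alone set which cells belong to the cluster, and the cluster was chosen with earlier results of these data known. The Progenitor cells number 921 of 12352 annotated cells (7.46%). Cluster 0 was the largest of 45 fine clusters, ahead of an epidermal cluster of 814 cells, and the only fine cluster in its broad class, 1 of 13 broad classes. The name was not checked against marker genes, since no expression values were analysed here.

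All animals were adults of 6 to 8 weeks, heterozygous for a stable transgene in which FoxL2, Elav or SoxC drives KikGR, a fluorescent protein whose colour violet light switches irreversibly to red. KikGR was photoconverted in the animals, and the tissue below the pharynx, body wall and mesenteries together, was dissociated and sorted 2, 4 or 7 days later. The FoxL2 line had 10 dissociations, 4 on day 2, 4 on day 4 and 2 on day 7. Of these, 5 came from animals in 1% DMSO and 5 from animals with no treatment stated, called untreated below, and both FoxL2 dissociations of day 7 were in DMSO. The Elav line had 8 dissociations, 3, 2 and 3 on days 2, 4 and 7, and 4 of each medium, with both day 4 dissociations in DMSO. The SoxC line had 9 dissociations, 1, 3 and 5 on days 2, 4 and 7, all in DMSO. Elav and SoxC cells were sorted with a single gate for KikGR fluorescence (KikGR+), whereas FoxL2 cells were also sorted with a gate named epithelial-depleted and with a gate named New. The dissociation is the replicate throughout, and the number of animals behind each is not given in the sources used here.

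In cnidarians, progenitor cells divide and give rise to several differentiated cell types. In this sea anemone, dividing cells that express SoxC are known to yield neurons, gland cells and the stinging cells called cnidocytes. Elav, an RNA-binding protein, marks many differentiated neurons, SoxC is an HMG-box transcription factor of neural and secretory lineages, and FoxL2 is a forkhead transcription factor. After photoconversion, KikGR made before it is red and KikGR made after it is green, so that a cell in which the driver comes on later carries green protein alone, a cell that stops making the protein keeps red, and a cell that goes on making it carries both. The authors' colour classes are green, orange and red. The rule that set their borders is not given in the sources used here.

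The 84 libraries came from 44 sorted plates, and each dissociation held 245 to 995 annotated cells (median 363). The cell table gave every cell the line, day, medium and dissociation that its library's labels gave, with 0 cells that differed. In the 76 libraries with well lists, 5184 of 5952 barcodes occurred in more than 1 library, always across demultiplexing pools, and 0 were shared by libraries within a pool. All untreated dissociations lay in 1 of the 4 pools and no pool held both media, so that medium and pool cannot be told apart.

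Progenitor cells made up a larger share of the cells sorted from the FoxL2 and Elav lines than of those from the SoxC line. They averaged 9.20% ± 3.92 of cells in FoxL2 dissociations (SD, n = 10), 8.41% ± 4.54 in Elav dissociations (n = 8) and 2.44% ± 1.62 in SoxC dissociations (n = 9). By mean share they ranked 2nd among the 45 clusters in the FoxL2 line, 2nd in the Elav line and 16th in the SoxC line. The counts behind these shares were 589 Progenitor cells of 6137 in FoxL2, 254 of 2764 in Elav and 78 of 3451 in SoxC.

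The FoxL2 dissociations of day 2 held 7.30%, 14.3%, 14.8% and 7.44% Progenitor cells (dissociations 10, 11, 18 and 19). Those of day 4 held 9.63%, 9.55%, 11.2% and 10.9% (dissociations 12 to 15), and those of day 7 held 3.29% and 3.52% (dissociations 16 and 17). Both day 7 values thus lay below the other FoxL2 values, and day 2 held both the lower and the upper range of the rest. In the Elav line the shares were 7.32%, 7.89% and 3.38% on day 2 (dissociations 20 to 22), 4.41% and 15.5% on day 4 (dissociations 23 and 24), and 4.36%, 14.0% and 10.5% on day 7 (dissociations 25 to 27). Elav values differed more within a day than between days. In the SoxC line the share was 1.63% on day 2 (dissociation 1), 2.61%, 4.90% and 2.34% on day 4 (dissociations 2 to 4), and 2.32%, 5.03%, 1.62%, 1.55% and 0% on day 7 (dissociations 5 to 9). In SoxC dissociation 9, 0 of 305 cells were Progenitor cells, which allows a share of up to 0.984% by the limit of 3 cells (1.24% by the Wilson interval). The SoxC values overlapped the low end of both other lines, since its highest value of 5.03% was above both FoxL2 dissociations of day 7.

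**Figure D1:**
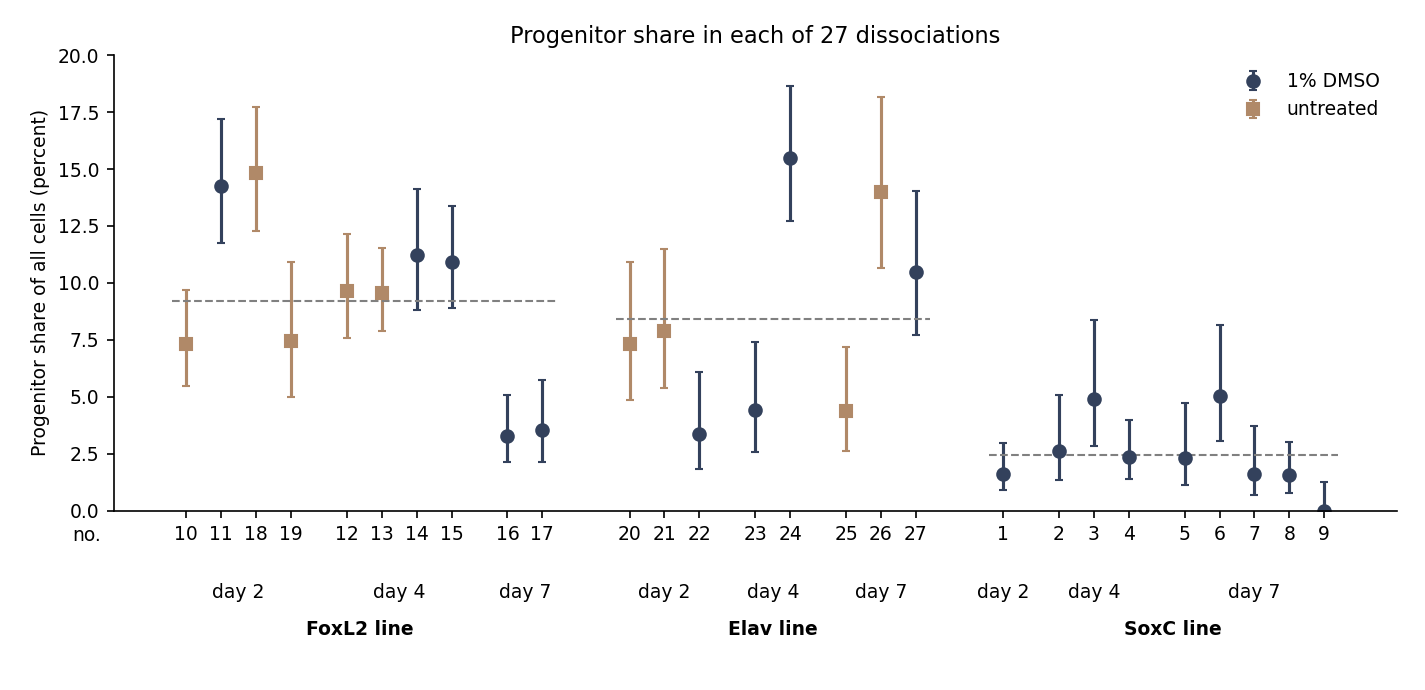
Progenitor cells as a percentage of all annotated cells (vertical axis) in each numbered dissociation, grouped by line and day after photoconversion. Bars are 95% Wilson intervals, which cover counting error only, dashed lines are line means (9.20% FoxL2, 8.41% Elav, 2.44% SoxC), and the markers give the medium. The SoxC points lie between 0% and 5.03%.

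The difference in mean share was 6.75 percentage points for FoxL2 minus SoxC (exact permutation test over dissociations, two-sided, p = 0.000336, Benjamini-Hochberg adjusted p = 0.00181 over 135 tests of 45 clusters and 3 pairs of lines). For Elav minus SoxC it was 5.96 points (exact permutation p = 0.000658, adjusted p = 0.00288). Such differences were common in these comparisons, with 55.6% of the 45 fine clusters called between FoxL2 and SoxC and 62.2% between Elav and SoxC. FoxL2 minus Elav gave 0.787 points (exact permutation p = 0.691, adjusted p = 0.790), in a comparison that called 22.2% of clusters. The sign of this last difference turned with the gate, and in the KikGR+ gate alone it was -1.18 points, with a FoxL2 mean of 7.23% ± 3.23 (n = 8). The 2 differences from SoxC kept their direction and their calls under every alternative tried, among them DMSO dissociations alone and the KikGR+ gate alone.

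A share also depends on what else was sorted. Neurons of the broad class Neural 1 made up 30.9% ± 13.7 of FoxL2 cells, 44.0% ± 12.2 of Elav cells and 11.3% ± 3.07 of SoxC cells, while the class Secretory made up 15.3% ± 4.76, 13.1% ± 3.82 and 28.9% ± 9.23 (SD, n = 10, 8 and 9). Developing cnidocytes were 1.85% ± 0.875 of FoxL2 cells, 1.18% ± 0.598 of Elav cells and 4.95% ± 2.89 of SoxC cells. Among the cells outside Neural 1, Progenitor cells averaged 13.8% ± 5.76 in FoxL2, 15.7% ± 9.56 in Elav and 2.74% ± 1.79 in SoxC. Neural 1 was the larger class in FoxL2 and Elav, so that leaving it out raises their shares more than that of SoxC by construction. The share outside Secretory, the class that was larger in SoxC, was not computed.

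Across days, no change in the Progenitor share passed the test. The common slope within lines was -0.278 percentage points per day (permutation test with days exchanged within lines, p = 0.458, adjusted p = 0.935), and this test called 0 of the 45 clusters, with 2 at an unadjusted p under 0.05. FoxL2 dissociations averaged 11.0% ± 4.14 on day 2 (n = 4), 10.3% ± 0.864 on day 4 (n = 4) and 3.41% ± 0.161 on day 7 (n = 2). The FoxL2 slope was -1.45 (exact permutation p = 0.02), which did not pass adjustment over clusters and lines (adjusted p = 0.973). In the KikGR+ gate alone FoxL2 dissociations had 6.67% and 6.33% on day 2, 5.51% to 11.2% on day 4 (mean 9.51%, n = 4) and 3.29% and 3.52% on day 7, and the slope was -0.784 (exact permutation p = 0.25). The higher day 2 mean over all gates thus came with day 2 cells sorted by the other gates. Elav dissociations averaged 6.20% ± 2.46, 9.94% ± 7.82 and 9.60% ± 4.87 on the same days, with a slope of 0.634 (exact permutation p = 0.429). SoxC dissociations averaged 3.28% ± 1.40 on day 4 and 2.10% ± 1.84 on day 7, beside the 1.63% of the single day 2 dissociation, with a slope of -0.115 (exact permutation p = 0.720). No difference in slope between lines passed, the smallest exact permutation p being 0.0573 for FoxL2 minus Elav (adjusted p = 0.158 over 3 pairs of lines).

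The medium was compared within a line and day. Mean shares over the whole lines were 8.64% ± 4.96 in DMSO and 9.75% ± 3.04 in untreated FoxL2 dissociations (n = 5 each), and 8.43% ± 5.64 in DMSO and 8.39% ± 4.04 in untreated Elav dissociations (n = 4 each). Within line and day, DMSO minus untreated was 0.921 points (exact permutation test, 216 arrangements, p = 0.597, adjusted p = 0.707). This test called 11.1% of the 45 clusters. In the KikGR+ gate alone the difference was -1.56 points, and without FoxL2 dissociation 11 it was -0.202, so that neither its size nor its direction held.

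The sorting gate went with a large difference inside the FoxL2 line. In dissociation 11 (day 2), Progenitor cells were 22.9% of the 306 cells of the New gate and 6.33% of the 332 cells of the KikGR+ gate. In dissociation 15 (day 4) they were 17.1% of the 351 cells of the New gate and 5.51% of the 399 cells of the KikGR+ gate. The Wilson intervals were 18.5 to 27.9% against 4.17 to 9.48% in dissociation 11, and 13.5 to 21.4% against 3.67 to 8.21% in dissociation 15. They did not overlap in either, but they cover counting error only. Plates of the KikGR+ gate also had intervals apart within a dissociation, with 5.90% and 17.2% in dissociation 14 and 0% and 8.21% in dissociation 15. The mean difference of 14.1 points was the highest of the 45 clusters, followed by gastrodermis clusters 2 (9.66 points) and 3 (8.36 points), while epidermis cluster 1 had the lowest (-16.3 points). With 2 dissociations the exact sign-flip test cannot go below p = 0.5, and the New gate was 1 plate in each, so that gate and plate cannot be told apart. All New gate cells came from DMSO dissociations and all epithelial-depleted cells from untreated dissociations.

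Between the epithelial-depleted and KikGR+ gates of the same FoxL2 dissociations, no difference in Progenitor share passed the test. The values were 8.03% in the epithelial-depleted gate and 6.67% in the KikGR+ gate of dissociation 10, 9.46% and 10.2% in dissociation 12, and 9.24% and 11.1% in dissociation 13. The mean difference was -0.413 points (exact sign-flip permutation test, p = 0.75, where 3 dissociations cannot go below 0.25), and the test called 0 of 45 clusters, with 0 at an unadjusted p under 0.05. Without dissociation 13 the difference was 0.314. FoxL2 dissociations 18 and 19, sorted with the epithelial-depleted gate alone, held 14.8% and 7.44%. In all, the New gate gave 130 Progenitor cells of 657, the epithelial-depleted gate 266 of 2568 and the FoxL2 KikGR+ gate 193 of 2912.

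**Figure D2:**
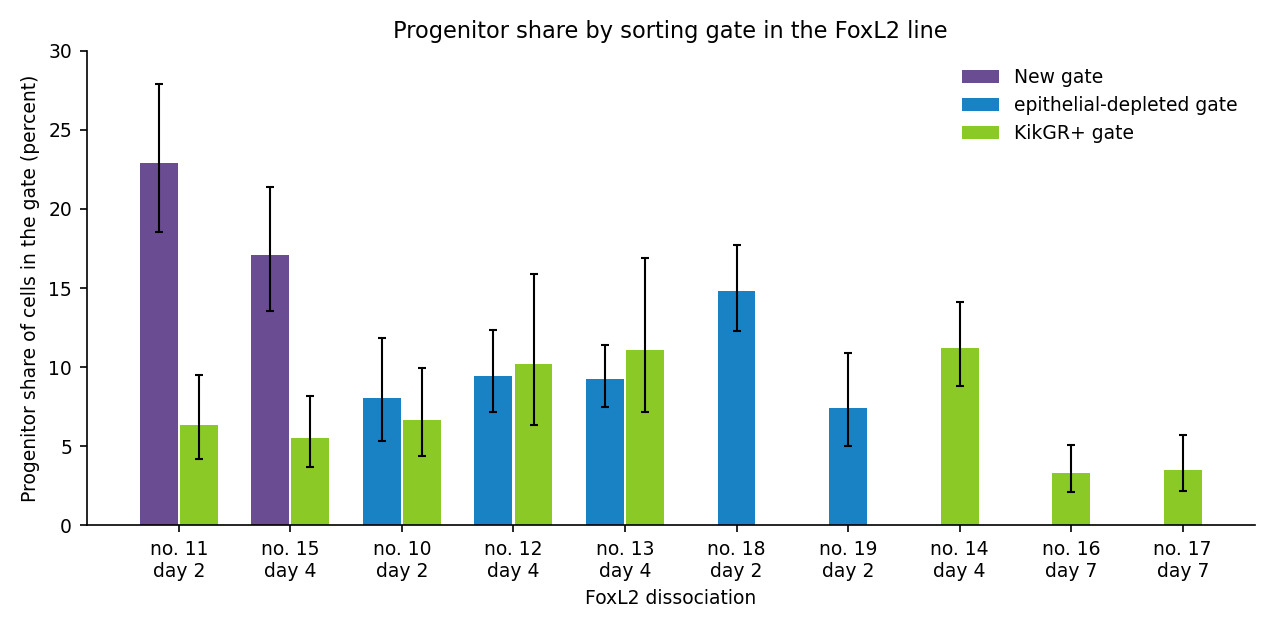
Progenitor cells as a percentage of the cells in each sorting gate (vertical axis) in the 10 FoxL2 dissociations, with 95% Wilson intervals, which cover counting error only. In dissociations 11 and 15 the New gate reached 22.9% and 17.1%, against 6.33% and 5.51% in the KikGR+ gate, while the epithelial-depleted and KikGR+ bars of dissociations 10, 12 and 13 have overlapping intervals.

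Some plates of 1 dissociation and gate differed widely in Progenitor share. Of 13 dissociations and gates sorted into more than 1 plate, 11 had plates with overlapping Wilson intervals, which does not show that their shares were alike. Among these, the plates of Elav dissociation 27 held 3.88% and 13.1%, and those of FoxL2 dissociation 17 held 0% and 4.90%. In FoxL2 dissociation 14 the plates held 5.90% and 17.2%, and in the KikGR+ gate of FoxL2 dissociation 15 they held 0% and 8.21%, and these intervals lay apart. The paired libraries of 40 plates differed by a median of 2.46 and at most 11.5 percentage points, with 1 plate whose intervals lay apart. Over single libraries the share ran between 0% and 24.7% (median 5.66%), and 7 of the 84 libraries held no Progenitor cell.

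A colour class was given to 509 Progenitor cells, all from the KikGR+ gate. In this gate 317 of 9127 cells had no class (3.47%), among them 16 Progenitor cells. FoxL2 dissociation 10 and SoxC dissociation 3 lacked a class for 52.7% and 27.3% of their KikGR+ cells, against 0% to 10.8% in the other dissociations, and 9 of the 16 Progenitor cells without a class came from FoxL2 dissociation 10. Of the classed Progenitor cells, 186 were green, 257 orange and 66 red.

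The lines differed in which colour led. Among Progenitor cells the FoxL2 line had 11 green, 145 orange and 27 red cells, the Elav line 126 green, 97 orange and 28 red, and the SoxC line 49 green, 15 orange and 11 red. Shares below are means over dissociations with at least 5 classed Progenitor cells, 8 in each line. Orange cells averaged 77.1% ± 11.0 of FoxL2, 31.7% ± 28.7 of Elav and 16.9% ± 12.6 of SoxC Progenitor cells. Green cells averaged 7.79% ± 10.3 of FoxL2, 51.0% ± 42.2 of Elav and 68.4% ± 17.1 of SoxC Progenitor cells. Red cells averaged 15.1% ± 12.9 of FoxL2, 17.2% ± 25.2 of Elav and 14.7% ± 17.6 of SoxC Progenitor cells. The FoxL2 and SoxC dissociations did not overlap in green, with 0% to 28.6% in FoxL2 and 46.2% to 100% in SoxC, nor in orange, with 66.7% to 94.7% in FoxL2 and 0% to 33.3% in SoxC.

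Compared within days, green was -56.4 percentage points in FoxL2 minus SoxC (exact permutation test of line labels within days, p = 0.000635, adjusted p = 0.00286 over 9 tests of 3 colours and 3 pairs of lines) and -43.6 points in FoxL2 minus Elav (exact permutation p = 0.002, adjusted p = 0.006). Orange was 60.7 points higher in FoxL2 than in SoxC (exact permutation p = 0.000635, adjusted p = 0.00286) and 43.2 points higher in FoxL2 than in Elav (exact permutation p = 0.00533, adjusted p = 0.012). Elav minus SoxC passed in neither colour, with -5.12 points in green (exact permutation, adjusted p = 0.808) and 9.01 points in orange (adjusted p = 0.742). The green value averages days that differed in sign. Green means on days 2, 4 and 7 were 6.68%, 57.3% and 91.2% in Elav, and 60% (1 dissociation), 58.0% and 78.3% in SoxC. With DMSO dissociations alone, FoxL2 minus Elav was -45.2 points in green (exact permutation, adjusted p = 0.0833) and 42.6 points in orange (adjusted p = 0.125). Before adjustment that green exact permutation p was 0.0278, the smallest that the DMSO dissociations allow. With at least 10 classed Progenitor cells, FoxL2 minus SoxC was -48.6 points in green and 48.1 points in orange (exact permutation, adjusted p = 0.05 for each, which does not pass). Of the SoxC dissociations only 1, 4 and 6 then remained. Before adjustment each exact permutation p was 0.0222, the smallest that these dissociations allow. The comparisons of colour between lines were run for Progenitor alone. The other classed cells of the same dissociations also differed between lines. They averaged 7.94% green in FoxL2, 32.3% in Elav and 39.3% in SoxC, and 52.1%, 48.1% and 32.2% orange.

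Colour moved with the day after photoconversion, most in the Elav line. Green Progenitor cells were 4.76%, 4.17% and 11.1% of the Elav dissociations of day 2 (dissociations 20 to 22), 84.6% and 29.9% of those of day 4 (dissociations 23 and 24), and 100%, 86.7% and 86.8% of those of day 7 (dissociations 25 to 27). The 3 days did not overlap. They rest on 9 to 87 classed Progenitor cells per dissociation. In FoxL2 the green shares were 0% and 4.76% on day 2 (dissociations 10 and 11), 0%, 5.56%, 0% and 18.2% on day 4 (dissociations 12 to 15), and 5.26% and 28.6% on day 7 (dissociations 16 and 17). FoxL2 Progenitor cells stayed mostly orange on each day, with orange means of 66.7%, 79.3% and 83.1% on days 2, 4 and 7. In SoxC the green shares were 60% on day 2 (dissociation 1), 50%, 77.8% and 46.2% on day 4 (dissociations 2 to 4), and 71.4%, 66.7%, 100% and 75% on day 7 (dissociations 5 to 8). Green cells were above 50% in 6 of the 8 SoxC dissociations, the exceptions being dissociations 2 and 4. The SoxC dissociations held 5 to 15 classed cells and their intervals are wide, such as 31.3 to 83.2% for dissociation 1. Green in the other classed cells moved with the day as well. It averaged 14.2%, 38.2% and 46.6% in Elav on days 2, 4 and 7, and 5.08%, 5.60% and 15.5% in FoxL2. In SoxC it averaged 52.9%, 33.1% and 40.5%.

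**Figure D3:**
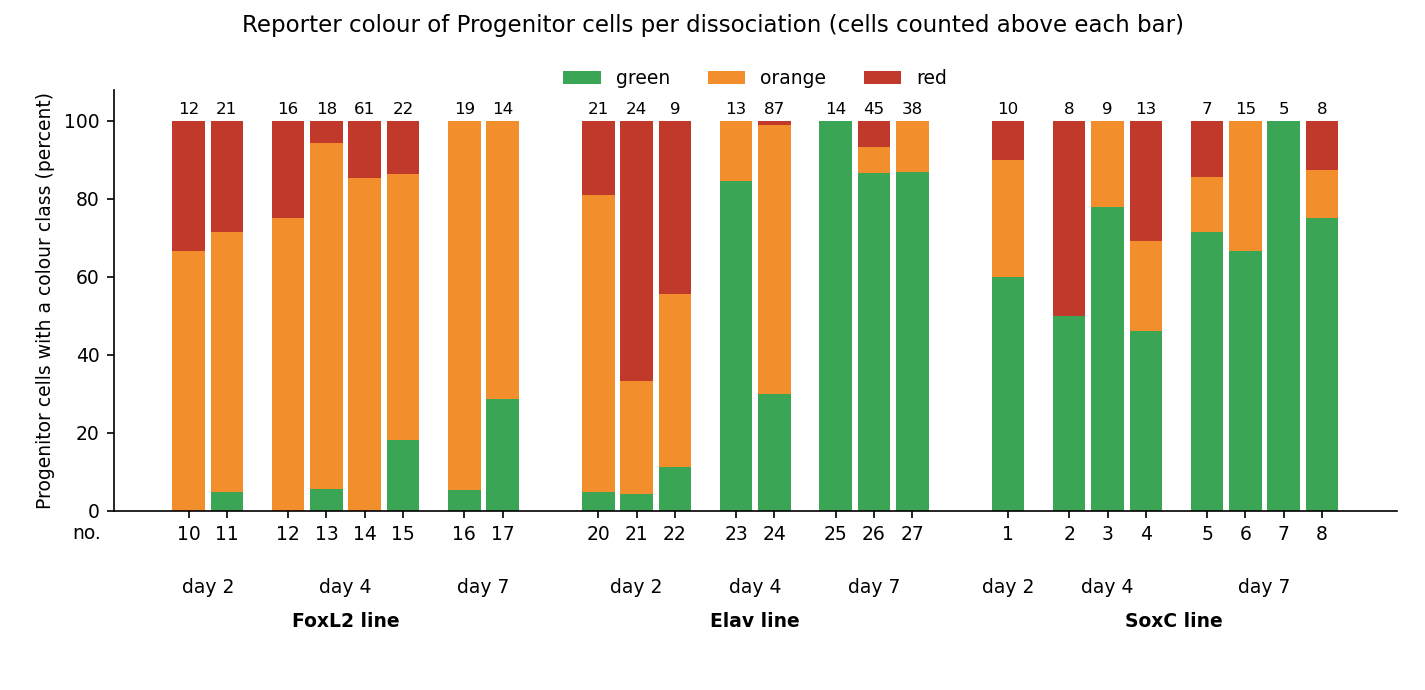
Share of green, orange and red cells (vertical axis, percent of Progenitor cells with a colour class) in each numbered dissociation with at least 5 such cells, grouped by line and day, with the number of cells above each bar. FoxL2 bars are mainly orange, SoxC bars hold 46.2% to 100% green, and Elav bars hold 4.17% to 11.1% green on day 2 and 86.7% to 100% green on day 7.

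The common slope of the green share within lines was 9.24 percentage points per day (permutation test with days exchanged within lines, n = 24, p = 0.000210, adjusted p = 0.00388 over 37 clusters with enough classed cells). Of these clusters 5.41% were called, Progenitor and a Neural 1 cluster. By line the slope was 3.00 in FoxL2 (exact permutation p = 0.129), 16.6 in Elav (p = 0.00714, adjusted p = 0.102 over 43 tests of clusters and lines) and 4.93 in SoxC (p = 0.143). No cluster passed in a single line. Slopes were compared between lines for Progenitor alone, with adjustment over the 3 pairs of lines only and not over clusters. The Elav slope was 11.6 points per day above that of SoxC (exact permutation p = 0.0179, adjusted p = 0.0268), and FoxL2 minus Elav was -13.6 (exact permutation p = 0.00733, adjusted p = 0.022). The common slope did not pass in DMSO dissociations alone (6.22, adjusted p = 0.171), in untreated dissociations alone (16.2, adjusted p = 0.387) or with at least 10 classed cells (8.88, adjusted p = 0.0720).

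The red class was followed in the same dissociations. In Elav they were 19.0%, 66.7% and 44.4% on day 2 (dissociations 20 to 22), 0% and 1.15% on day 4 (dissociations 23 and 24), and 0%, 6.67% and 0% on day 7 (dissociations 25 to 27). In FoxL2 they were 33.3% and 28.6% on day 2 (dissociations 10 and 11), 25%, 5.56%, 14.8% and 13.6% on day 4 (dissociations 12 to 15), and 0% and 0% on day 7 (dissociations 16 and 17). Day 2 was the highest day in both lines, without overlap with days 4 and 7. In SoxC they were 10% on day 2 (dissociation 1), 50%, 0% and 30.8% on day 4 (dissociations 2 to 4), and 14.3%, 0%, 0% and 12.5% on day 7 (dissociations 5 to 8), with no order by day. The common slope was -5.86 points per day (permutation p = 0.00140, adjusted p = 0.0518), just above the threshold of 0.05, in a test that called 0 of 37 clusters and had 8 at an unadjusted p under 0.05. It passed in 3 of the 6 alternatives tried other than leaving out a dissociation. Among these, a minimum of 1 classed cell left the Progenitor slope and its unadjusted p unchanged, and only the other clusters adjusted over differed. The common slope did not pass in DMSO dissociations alone (-4.90, adjusted p = 0.252), in untreated dissociations alone (-8.01, adjusted p = 0.581) or with line and medium as strata (-5.90, adjusted p = 0.0958). With 1 dissociation left out the adjusted p ran between 0.00370 and 0.154 and passed in 5 of 24 cases. By line the slopes were -6.04 in FoxL2 (exact permutation p = 0.00476, adjusted p = 0.205), -7.71 in Elav (exact permutation p = 0.0375, adjusted p = 0.323) and -3.15 in SoxC (exact permutation p = 0.4). Red in the other classed cells averaged 33.8%, 8.19% and 12.9% in Elav on days 2, 4 and 7. It averaged 46.4%, 48.8% and 15.8% in FoxL2, and 26.5%, 32.0% and 26.3% in SoxC.

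Progenitor cells were greener and less red than the other classed cells of the same dissociations. Green made up 42.4% ± 36.6 of Progenitor cells and 26.5% ± 19.5 of all other cells (n = 24 dissociations), a difference of 15.9 points, higher in 16 of 24 (exact sign-flip permutation test, p = 0.000879, adjusted p = 0.00813). This comparison called 21.6% of 37 clusters. The call ended with at least 10 classed cells (12.3 points, adjusted p = 0.0542) and in untreated dissociations alone (13.9 points, adjusted p = 0.984). Progenitor ranked 5th from the highest, after gastrodermis clusters 30, 3 and 2 and the parietal muscle cluster 8, with differences of 35.9, 27.7, 23.3 and 27.8 points. These clusters were tested on their own sets of 8 to 20 dissociations, so that the ranks do not compare them with Progenitor directly. Red made up 15.7% ± 18.4 of Progenitor cells and 29.3% ± 18.4 of all other cells, a difference of -13.6 points, higher in 3 of 24 (exact sign-flip permutation p = 0.00137, adjusted p = 0.0170). The red comparison called 32.4% of the 37 clusters, and the call ended in untreated dissociations alone (-22.7 points, adjusted p = 0.246). Orange differed by -2.22 points (exact sign-flip permutation p = 0.687, adjusted p = 0.715), where 2.7% of clusters were called.

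**Figure D4:**
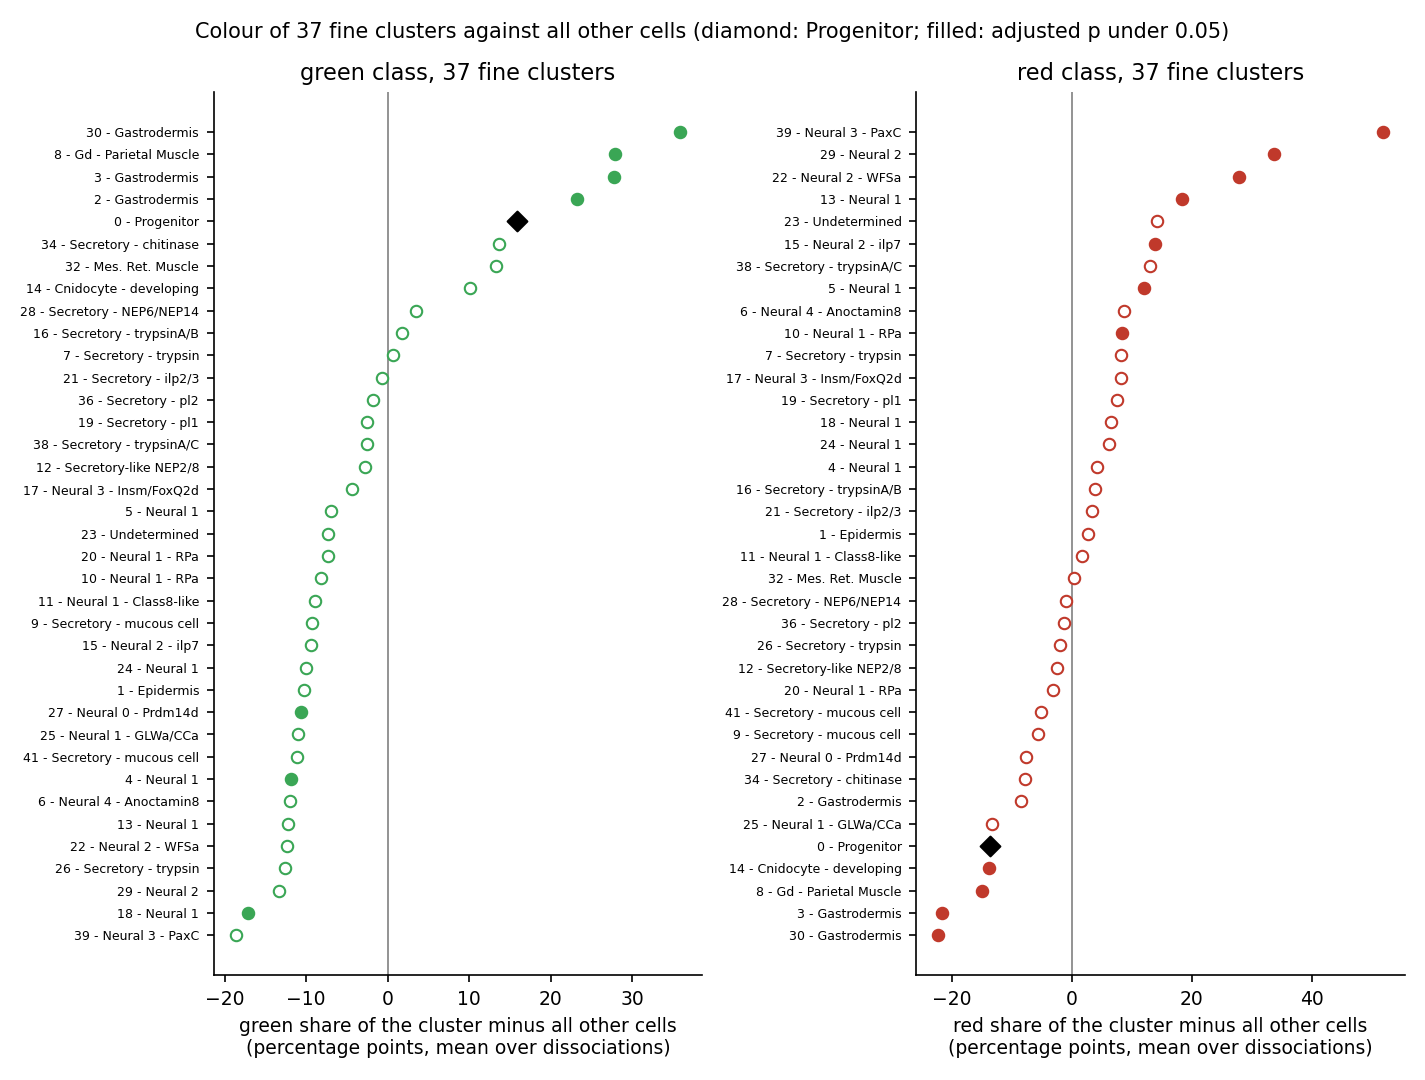
Difference in green share (left) and red share (right) between each of 37 fine clusters and all other classed cells of the same dissociations (horizontal axis, percentage points, mean over dissociations), ordered by the difference. Progenitor, the black diamond, stands at 15.9 points for green and -13.6 points for red, and filled points have an adjusted p under 0.05.

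The same difference was then taken in each line. In SoxC, green was 68.4% ± 17.1 of Progenitor cells and 39.3% ± 12.6 of other cells, a difference of 29.1 points that was positive in 8 of 8 dissociations (exact sign-flip permutation p = 0.00781, the smallest that 8 dissociations allow, adjusted p = 0.112 over 43 tests). In Elav, green was 51.0% ± 42.2 of Progenitor cells and 32.3% ± 20.6 of other cells, a difference of 18.7 points that was positive in 5 of 8 (exact sign-flip permutation p = 0.117, adjusted p = 0.252). By day this Elav difference was -7.52 points on day 2, negative in 3 of 3 dissociations, 19.1 on day 4 and 44.6 on day 7, positive in all 5 dissociations of the later days. In FoxL2, green was 7.79% ± 10.3 of Progenitor cells and 7.94% ± 6.50 of other cells, a difference of -0.146 points (exact sign-flip permutation p = 0.938). None of the 3 lines passed for green alone, and the test called 0% of clusters in each.

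In FoxL2 the red difference passed after adjustment and the orange difference did not, but this contrast does not separate the colours. Both had the same exact sign-flip permutation p of 0.00781, the smallest that 8 dissociations allow. Their adjusted p differed only through the other tests adjusted over. With green at -0.146 points, orange and red were nearly the same change with opposite sign, since the colour shares add up to a fixed total. Orange was 77.1% ± 11.0 of Progenitor cells and 52.1% ± 17.8 of other cells, a difference of 25.0 points that was positive in 8 of 8 dissociations (exact sign-flip permutation p = 0.00781, adjusted p = 0.0840). Red was 15.1% ± 12.9 of Progenitor cells and 39.9% ± 22.1 of other cells, a difference of -24.8 points that was negative in 8 of 8 (exact sign-flip permutation p = 0.00781, adjusted p = 0.0420). It was the only 1 of the 8 clusters tested in FoxL2 to pass (12.5%), and with any 1 dissociation left out its adjusted p was 0.0547 to 0.0611. Each of these runs had an exact sign-flip permutation p of 0.0156, the smallest that the remaining dissociations allow. The difference in them was -28.3 to -20.9 points. In SoxC, red was 14.7% ± 17.6 of Progenitor cells and 28.5% ± 12.0 of other cells, a difference of -13.8 points (exact sign-flip permutation p = 0.0469, adjusted p = 0.126), and orange differed by -15.3 points (exact sign-flip permutation p = 0.0313, adjusted p = 0.103). In Elav, red differed by -2.30 points (exact sign-flip permutation p = 0.703) and orange by -16.4 points (exact sign-flip permutation p = 0.0938, adjusted p = 0.224). Red was called in 13.3% of the clusters tested in Elav and 25% of those in SoxC, and orange in 0% in each line. Without FoxL2 dissociation 10, in which 52.7% of KikGR+ cells had no class, the FoxL2 red difference was -24.1 points.

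**Figure D5:**
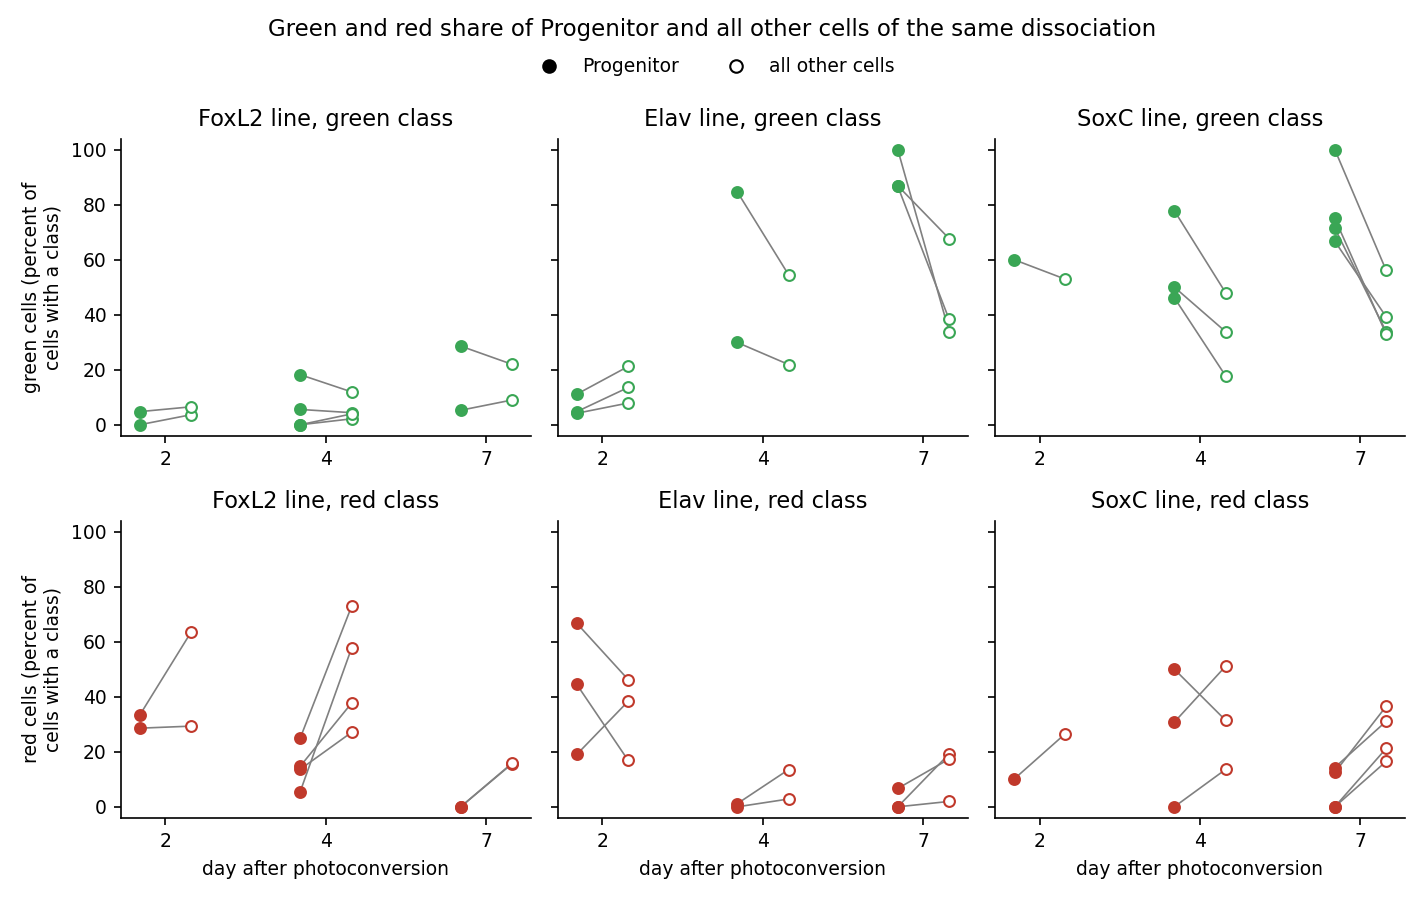
Green share (upper row) and red share (lower row) of Progenitor cells (filled) and of all other classed cells (open) in the same dissociation, joined by a line, by day after photoconversion (horizontal axis) and line. In Elav the green Progenitor points lie below the other cells on day 2 and above them on days 4 and 7, and in FoxL2 all 8 red Progenitor points lie below the other cells.

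Progenitor cells were also set against broad classes of the cell types that dividing cells expressing SoxC are known to yield. Whether cluster 0 holds such dividing cells was not tested. Against Neural 1, green was 42.4% ± 36.6 of Progenitor cells and 17.7% ± 16.6 of Neural 1 cells, a difference of 24.7 points (n = 24, exact sign-flip permutation p = 7.06e-05, adjusted p = 0.000635 over 9 tests of 3 colours and 3 classes). Red differed by -18.9 points (exact sign-flip permutation p = 0.00113, adjusted p = 0.00340), with 34.6% ± 23.2 of Neural 1 cells red. Against Secretory, green differed by 14.4 points (exact sign-flip permutation p = 0.00418, adjusted p = 0.00940) and red by -15.6 points (exact sign-flip permutation p = 0.000206, adjusted p = 0.000928), with 28.0% ± 18.8 of Secretory cells green and 31.3% ± 19.1 red. Each of these 4 calls ended in untreated dissociations alone, with 14.3 points in green (adjusted p = 0.6) and -21.6 in red (adjusted p = 0.375) against Neural 1, and 11.5 in green (adjusted p = 0.6) and -24.3 in red (adjusted p = 0.281) against Secretory. The green difference from Secretory also ended with at least 10 classed cells (10.5 points, adjusted p = 0.0950). Single lines could differ in sign from these means over all lines. FoxL2 Progenitor cells were 7.79% ± 10.3 green and FoxL2 Secretory cells 10.9% ± 7.46, a difference of -3.07 points that was positive in 2 of 8 (exact sign-flip permutation p = 0.0469, adjusted p = 0.0865 over 24 tests by line). Elav Progenitor cells were 17.2% ± 25.2 red and Elav Neural 1 cells 14.6% ± 13.9, a difference of 2.63 points (exact sign-flip permutation p = 0.727).

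The differences from developing cnidocytes did not pass the test. In the 15 dissociations with at least 5 classed cells of each, green was 45.5% ± 34.7 of Progenitor cells and 39.0% ± 33.3 of developing cnidocytes, a difference of 6.56 points (exact sign-flip permutation p = 0.0735, adjusted p = 0.132). Red was 12.4% ± 14.7 of Progenitor cells and 15.4% ± 17.6 of developing cnidocytes, a difference of -3.04 points (exact sign-flip permutation p = 0.521, adjusted p = 0.616). With a minimum of 1 classed cell these became 12.1 points in green (adjusted p = 0.00342) and -15.5 points in red (adjusted p = 0.0213), so that both calls depend on how many cells a dissociation must hold. In SoxC, where all 8 dissociations could be compared, red was 14.7% ± 17.6 of Progenitor cells and 5.13% ± 6.83 of developing cnidocytes (difference 9.56 points, exact sign-flip permutation p = 0.0625, adjusted p = 0.0938 over 24 tests by line).

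By line, SoxC Progenitor cells were greener than SoxC Neural 1 cells by 42.1 points, with 68.4% ± 17.1 of Progenitor cells and 26.2% ± 17.1 of Neural 1 cells green. They were greener than SoxC Secretory cells by 30.6 points, with 37.8% ± 12.0 of Secretory cells green. Both held in 8 of 8 dissociations (exact sign-flip permutation p = 0.00781, adjusted p = 0.0313 for each). FoxL2 Progenitor cells were more often orange than FoxL2 Neural 1 cells by 28.2 points and than FoxL2 Secretory cells by 29.5 points, again in 8 of 8 (exact sign-flip permutation p = 0.00781, adjusted p = 0.0313 for each), and differed in red by -32.3 and -26.4 points (same p). Elav Progenitor cells were 27.9 points greener than Elav Neural 1 cells (exact sign-flip permutation p = 0.0625, adjusted p = 0.0938) and differed by -30.5 points in orange (exact sign-flip permutation p = 0.0234, adjusted p = 0.0511), and neither passed.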

How the data were processed

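Single cells were sorted into plates and processed by MARS-seq, with 2 libraries per plate, per the labels' protocols. The submitters' processing notes name STARsolo and STAR 2.7.10b. The deposited files used here are the authors' annotation and sorting records, in which a fine and broad cluster, gate, medium and colour class are given per cell. How cells were filtered, clustered, checked for doublets or assigned a colour is not given in the sources used here.

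Groups came from the labels. Progenitor cells and comparison classes were chosen with earlier results of these data known. Shares were computed per dissociation as percent of cells, with 95% Wilson intervals. Tests ran over dissociations for every fine cluster, with Benjamini-Hochberg adjustment over clusters: exact permutation tests of line labels, or of medium within line and day, exact sign-flip tests within dissociations, and 100000 permutations of days within lines for slopes (smallest p 1e-05). By exception, comparisons of colour and of slopes between lines, and of colour with broad classes, ran for Progenitor alone. They were not adjusted over clusters. Colour tests needed 5 classed cells of a cluster in a dissociation and 6 such dissociations. A limit for 0 cells is 3 cells of the total. Intervals and limits cover counting error only. Scripts used Python 3.11.15, numpy 2.4.6, pandas 2.3.3 and scipy 1.17.1 and were tested on simulated data. Alternatives were the logit scale with 0.5 cells added, equal plate weights, other denominators, gates, media, strata and minimum cell numbers, and leaving out each dissociation.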

Additional observations from a re-analysis of the deposited data

Results flagged for a closer look

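SoxC dissociation 2 (day 4) stood apart from the other SoxC dissociations in red: its Progenitor cells were 50% red, 18.6 percentage points above the other cells of that dissociation, whereas the remaining SoxC dissociations had differences below 0. It rests on 4 red cells of 8. Of 41 groups examined this was the single one flagged, and chance flags about 1 in 20.

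The difference between Progenitor cells and other cells was itself compared between lines, within days. In green it was -26.1 points for FoxL2 minus SoxC (exact permutation p = 0.000635, adjusted p = 0.00571). In orange it was 37.9 points for FoxL2 minus SoxC (exact permutation p = 0.00254, adjusted p = 0.0114) and 38.1 points for FoxL2 minus Elav (exact permutation p = 0.00533, adjusted p = 0.016). With at least 10 classed Progenitor cells these became -21.7 (adjusted p = 0.09), 24.8 (adjusted p = 0.16) and 37.0 points (adjusted p = 0.09), and with DMSO dissociations alone the last was 27.5 points (adjusted p = 0.0625). Before adjustment the exact permutation p was 0.0222 for the -21.7 points and 0.0278 for the 27.5 points. Each is the smallest that the dissociations left in that alternative allow.

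The slope of the green Progenitor share over days was 11.6 points per day higher in Elav than in SoxC, and FoxL2 minus Elav was -13.6 points per day. With 1 Elav dissociation left out, the Elav slope was 15.9 to 17.3 points per day, and SoxC has a single dissociation of day 2.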

How the results depend on the processing

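Alternatives involving the gate, single lines, pairs of lines in colour and broad classes were in part added after seeing the data. The share differences FoxL2 minus SoxC and Elav minus SoxC kept direction and call throughout (leave-one-out 6.13 to 7.41 and 4.96 to 6.68 points). FoxL2 minus Elav was 0.0678 to 1.79 with 1 dissociation left out, and turned to -1.90 outside Neural 1, -1.18 in the KikGR+ gate, -0.549 without the New gate and -2.46 in the KikGR+ gate of DMSO dissociations. The share slope was -0.479 to -0.0805 with 1 dissociation left out and 0.00578 in the KikGR+ gate. DMSO minus untreated (leave-one-out -0.202 to 2.34) turned to -0.501 with equal plate weights, -4.75 outside Neural 1, -1.56 in the KikGR+ gate, -1.89 without the New gate and -0.594 with line as the stratum. Epithelial-depleted minus KikGR+ was -1.30 to 0.314 with 1 dissociation left out. Green minus other cells (13.7 to 17.0) was no longer called with at least 10 classed cells (12.3, adjusted p = 0.0542) or in untreated dissociations (13.9, adjusted p = 0.984), and red minus other cells (-15.4 to -12.0) in untreated dissociations (-22.7, adjusted p = 0.246, 7 dissociations). The green slope (8.34 to 10.3) lost its call with at least 10 cells (8.88) and in DMSO (6.22) or untreated dissociations (16.2) alone. The red slope (-6.98 to -4.72) gained a call with at least 1 cell (-5.86), at least 10 cells (-5.83) and on the logit scale (-0.45 log odds per day), and without SoxC dissociation 1, 2, 3 or 8 or Elav dissociation 20, but not in DMSO (-4.90) or untreated dissociations (-8.01) alone or with line and medium as strata (-5.90). With at least 1 cell the Progenitor slope and its unadjusted p were unchanged, and only the other clusters adjusted over differed. Leave-one-out ranges that crossed 0 were -1.11 to 0.395 for FoxL2 green minus other cells, -6.57 to 0.126 for Elav red minus other cells, -12.1 to 7.29 for the green share in Elav minus SoxC and -7.05 to 2.47 for its difference from other cells. Where an alternative leaves out dissociations, fewer samples enter the test, and other causes were not tested. Lines could not be compared in pairs within a dissociation because no 2 lines share a dissociation number. SoxC held 5 to 15 classed Progenitor cells per dissociation, so its colour shares are coarse.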

Other observations

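In 4 dissociations the KikGR+ gate filled 1 plate with both libraries and 1 plate with a single library, and the plate of a single library held the lower Progenitor share in each. The shares on the single-library and the full plate were 4.80% (of 125 cells) and 7.25% (of 207) in FoxL2 dissociation 11, 0% (of 131) and 8.21% (of 268) in FoxL2 dissociation 15, 0% (of 120) and 4.90% (of 306) in FoxL2 dissociation 17, and 3.88% (of 103) and 13.1% (of 260) in Elav dissociation 27. The counts of 0 allow shares of up to 2.29% and 2.5% by the limit of 3 cells (2.85% and 3.10% by the Wilson interval). In FoxL2 dissociations 12 and 13, 1 plate each was divided between gates, with 1 library of epithelial-depleted and 1 of KikGR+ cells. On these divided plates the epithelial-depleted share was 11.0% in dissociation 12 and 4.68% in dissociation 13, against 8.62% on the full epithelial-depleted plate of dissociation 12 and 11.4% and 9.39% on the 2 full plates of dissociation 13. The 4 single-library KikGR+ plates lay in a different demultiplexing pool from the full plates beside them, so that number of libraries and pool cannot be told apart. Full plates with a library listed in that pool also held the lower share of their dissociation. The values were 0.340% against 2.81% in SoxC dissociation 1, 1.11% against 3.51% in SoxC dissociation 4 and 1.54% against 1.55% in SoxC dissociation 8. They were 5.90% against 17.2% in FoxL2 dissociation 14 and 3.03% against 3.57% in FoxL2 dissociation 16. These patterns were seen after the values were known and were not tested.

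Of 14328 wells recorded as sorted in the 76 libraries with well lists, 887 became Progenitor cells (6.19%). Progenitor cells were 7.45% of annotated cells in the libraries marked O and 7.47% in the libraries marked E of the plates.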
